A study of Saccharomyces cerevisiae and Saccharomyces cerevisiae x Saccharomyces paradoxus with 20 samples.

Results

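Wide promoter nucleosome-free regions (NFRs) of yeast were examined for their place relative to genes, their chromatin accessibility and their divergence between Saccharomyces cerevisiae and Saccharomyces paradoxus. An NFR counted as wide when it spanned 350 bp or more, overlapped the 300 bp upstream of the start codon of genes of 1 strand only, and lay more than 50000 bp from either end of its chromosome. Only the 4995 genes with RNA counts entered the strand condition, so promoters of other genes on the opposite strand were not excluded. For example, the wide NFR of CWC2 reached 335 bp upstream, past NHP2 on the opposite strand at 285 bp. Of the 3498 NFRs, 402 met this rule. They belonged to 402 different genes, and 9 of them overlapped the upstream windows of 2 genes, in which case the gene whose start codon was nearest the NFR center was used. The remaining one-strand promoter NFRs away from chromosome ends were 1221 of 150 to under 350 bp, here called medium, and 583 under 150 bp, here called narrow.

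In yeast, the promoter of an active gene typically contains a stretch of DNA that is depleted of nucleosomes, in which transcription factors and the transcription machinery bind. Poly(dA:dT) tracts, general regulatory factors and chromatin remodelers such as RSC are known to keep such stretches open, and the edge nearest the gene usually ends at a well-positioned nucleosome at the transcription start. FAIRE (formaldehyde-assisted isolation of regulatory elements) recovers DNA that is not crosslinked to nucleosomes, so a higher FAIRE count at a locus stands for more accessible chromatin there.

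FAIRE-Seq and RNA-Seq counts came from log-phase cultures in rich medium (YEPD) of the haploid S. cerevisiae strains UWOPS05_217_3 (a wild isolate) and DBVPG1373 (a wine strain), of the haploid S. paradoxus strain CBS432, and of the diploid hybrids UWOPS05_217_3-CBS432 and DBVPG1373-CBS432. Each strain or hybrid had 2 biological replicates. S. paradoxus was represented by 1 strain, so a difference between species is here a difference between these strains. The labels file the CBS432 haploid under S. cerevisiae, and it was treated here as S. paradoxus, as the study's text and the labels of its hybrids do. FAIRE tables held between 1339393 and 4198250 counts, and the log2 counts of wide NFRs correlated between replicates with r between 0.854 and 0.951, as a description across NFRs. CBS432 libraries were counted once at the sites that differ from UWOPS05_217_3 and once at those that differ from DBVPG1373, so both haploid comparisons with CBS432 rest on the same 2 CBS432 libraries. Levels are given as CPM, counts per 1000000 of the library's counts, with both alleles of a hybrid library together in the total, except that median levels per kb over a class of NFRs or genes are per 1000000 counts of each table itself, so that a hybrid allele table has its own total.

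Wide NFRs had a median width of 424.5 bp (quartiles 379 and 488.8 bp), against 236 bp for medium, 101 bp for narrow and 234 bp for all NFRs. They made up 11.5% of NFRs and 20.8% of the 888290 bp that all NFRs covered. Seen from the start codon, a wide NFR reached further in both directions: its far edge lay at a median of 388.5 bp upstream, against 275 bp for medium and 194 bp for narrow NFRs, and its near edge lay at a median of 26 bp inside the coding sequence, against 19 and 98 bp upstream of it. Of the 402 wide NFRs, 275 (68.4%) ran into the coding sequence of their own gene, against 483 of 1221 medium NFRs (39.6%) and 121 of 583 narrow NFRs (20.8%). In only 25 (6.22%) was more than 50% of the length coding sequence, against 8.68% of medium and 16.1% of narrow NFRs. Coding sequence here is that of the 4995 genes with RNA counts, and that of other genes was not included. These shapes follow in part from the width rule itself and are given as a description.

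The space upstream of the genes was larger as well. Among the 394 wide NFRs whose upstream neighbour is known from the R64 gene table, the median distance to that neighbour was 516.5 bp, against 450 bp for medium, 412 bp for narrow and 427 bp for all NFRs. The wide NFR was longer than this intergenic distance in 166 cases (42.1%), against 15.8% for medium NFRs. A neighbour on the opposite strand was found for 123 (31.2%), against 30.1% for medium and 33.9% for narrow NFRs. A tRNA gene was the upstream neighbour of 27 (6.85%), against 5.25% for medium and 6.20% for narrow NFRs, and a snoRNA gene of 6.

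**Figure D1:**
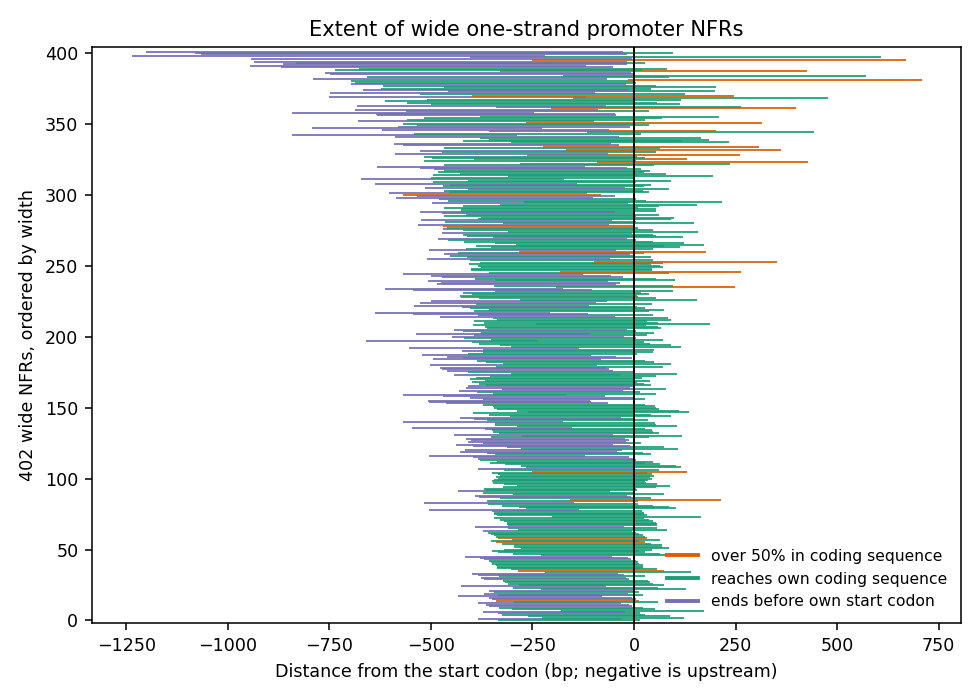
Extent of each of the 402 wide NFRs relative to the start codon of its gene, with distance in bp on the x axis (negative is upstream) and NFRs ordered by width on the y axis. Each line is 1 NFR, and 275 cross the start codon into the gene's own coding sequence. The 25 drawn in the color for over 50% coding sequence (of genes with RNA counts) include the line that reaches furthest to the right.

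The widest were those of YHR022C and ASF1, at 1175 bp each, and RMI1 at 1049 bp. ASF1 encodes a histone chaperone, and its NFR ran from 1080 bp upstream to 95 bp inside the gene (X:195206-196381; coordinates are given as the deposited tables list them, and the submitters' processing notes name the build sacCer3). RMI1 encodes a subunit of the complex of the helicase Sgs1 and topoisomerase Top3, and its NFR ended 18 bp before the start codon (XVI:502450-503499). At the other end of the width range, CWC2 and PTC1 were just inside the limit at 350 bp (2 NFRs had this width), and HUR1 and CIC1 were just outside it at 349 bp (4 NFRs had this width). Their raw FAIRE counts overlapped: CWC2 had 1056 and 2031 counts in UWOPS05_217_3 and 1620 and 1274 in CBS432, PTC1 had 2359 and 3246 in UWOPS05_217_3 and 787 and 1103 in CBS432, HUR1 had 647 and 1024 in UWOPS05_217_3 and 702 and 657 in CBS432, and CIC1 had 921 and 1405 in UWOPS05_217_3 and 499 and 344 in CBS432.

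Wide NFRs also held more FAIRE counts per unit length. They took between 22.2% and 25.3% of the FAIRE counts in the 16 tables, with 20.8% of the covered length, whereas medium NFRs took 27.5% to 30.7% with 33.2% of the length and narrow NFRs 4.52% to 6.00% with 6.47%. Scaled to the total of each table, the median level was 965.9 to 1089 CPM per kb for wide NFRs, against 704.5 to 873.9 for medium, 521.5 to 804.7 for narrow and 710.3 to 888.4 CPM per kb for all NFRs. In each of the 16 tables the median of wide NFRs was the highest of the 3 classes, while their quartile ranges overlapped. The width of an NFR was set by the authors from the FAIRE signal itself, so width and level are not independent and no test was made. No wide NFR was at 0 in any table, and counts per wide NFR and table were between 26 and 13729.

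**Figure D2:**
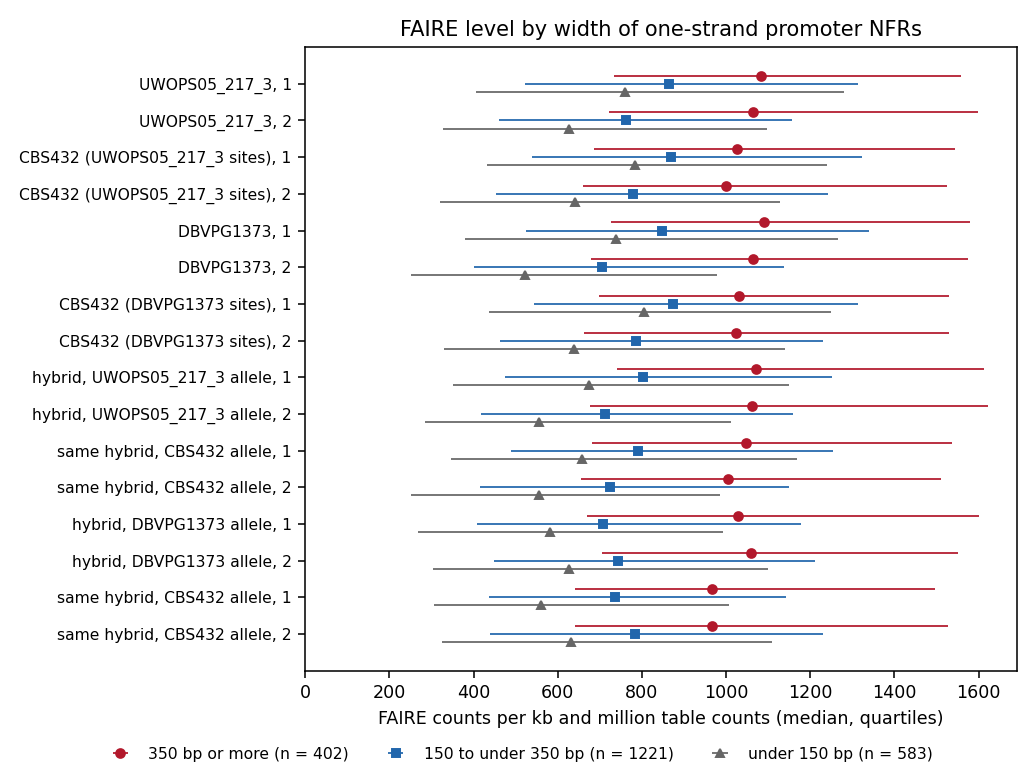
FAIRE level of one-strand promoter NFRs in each of the 16 tables, in CPM per kb of each table's own total on the x axis, with the symbol at the median and the line from the lower to the upper quartile over NFRs. The medians of the 402 wide NFRs lie between 965.9 and 1089, to the right of the medians of medium and narrow NFRs in every table, and the quartile ranges overlap.

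Across the 402 NFRs the mean level in UWOPS05_217_3 ran between 118 CPM per kb at ECM22, which encodes a sterol regulatory transcription factor, and 7392 CPM per kb at LOC1, with quartiles at 748.4 and 1589. LOC1 encodes a nuclear protein of ribosome assembly and ASH1 mRNA localization, and its 466 bp NFR (VI:148698-149164) had 3973 and 2916 CPM in UWOPS05_217_3, 3272 and 4000 in DBVPG1373 and 2114 and 2015 in CBS432. Next were RPL43B, a ribosomal protein gene, at 4912 CPM per kb, and TSR1, a factor of small ribosomal subunit maturation, at 4697 CPM per kb.

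The genes with wide NFRs were compared with 9 gene lists. Of the genes of cytosolic ribosomal proteins with a one-strand promoter NFR, 10 of 17 (58.8%) had a wide one, against 401 of 2188 (18.3%) of all such genes. Wide NFRs were also found for 3 of 6 genes of glycolysis and fermentation, 4 of 10 chaperone genes and 8 of 24 genes of nutrient and stress transcription factors (33.3%). They were found for 3 of 12 proteasome genes, 3 of 16 cyclin and cell cycle regulator genes, 2 of 11 cell wall genes, 3 of 17 plasma membrane transporter genes and 3 of 22 mitochondrial ribosomal protein genes (13.6%). The lists are small, these shares were not tested, and cytosolic ribosomal protein genes often come in near-identical pairs whose reads could be shared between copies.

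Between the haploid species, accessibility of wide NFRs differed in both directions. In UWOPS05_217_3 against CBS432, 77 of the 402 (19.2%) passed the test, here termed called, 49 higher and 28 lower, where 20.4% of all 3498 NFRs passed (edgeR's quasi-likelihood test, Benjamini-Hochberg adjusted p under 0.05). The directional shares over all NFRs were 10.8% higher and 9.58% lower. The median log2 ratio of wide NFRs was 0.07, and their median absolute log2 ratio was 0.46, against 0.51 for all NFRs. Ratios past 1 on the log2 scale in either direction occurred in 15.9% of wide and 21.4% of all NFRs. DESeq2 called 86 wide NFRs and 21.9% of all NFRs. The count rests on every library, since it was 38 without the first CBS432 library, 36 without the second, 48 without the second UWOPS05_217_3 library and 60 without the first. In 75 of the 77 called NFRs, each of the 4 ways to pair a library of one strain with one of the other gave the same direction. With 2 libraries a group an exact permutation test of a single NFR cannot go below p = 0.333, so single NFRs were judged only by the fit across all NFRs.

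The exceptions were PDR15, which encodes a multidrug transporter, and SPO24, a sporulation gene. PDR15 had 408 and 1874 CPM in UWOPS05_217_3 and 479 and 185 CPM in CBS432, and SPO24 had 349.7 and 2030 CPM in UWOPS05_217_3 and 591 and 351 CPM in CBS432. In both, the second UWOPS05_217_3 library alone was high and the first lay among or below the CBS432 libraries.

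In DBVPG1373 against the same CBS432 libraries, 25 of the 402 (6.22%) were called, 19 higher and 6 lower, where 8.23% of all NFRs were called (4.26% higher and 3.97% lower). The median log2 ratio of wide NFRs was 0.14 and the median absolute ratio 0.44, against 0.52 for all NFRs. DESeq2 called 50 wide NFRs and 13.6% of all NFRs. This count turned on single libraries: it was 4 without the first CBS432 library, 11 without the second, 72 without the first DBVPG1373 library and 43 without the second. Between the S. cerevisiae strains, UWOPS05_217_3 against DBVPG1373, no wide NFR was called by edgeR or by DESeq2, and 12 had an unadjusted p under 0.05. Over all NFRs edgeR called 0.114% (all higher, 0% lower) and DESeq2 0.543%, and 4.46% had an unadjusted p under 0.05. The median absolute log2 ratio between these strains was 0.20 for wide and 0.25 for all NFRs. Without the first DBVPG1373 library 6 wide NFRs were called in this comparison, those of ICS2, TLD1, PDR15, NSR1, PMT6 and FAA3.

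Within the hybrids, both alleles share 1 nucleus, so a difference between alleles is read here as a cis difference. The authors filtered NFRs on simulated reads and genomic DNA. Any imbalance of mapping or copy number left after that filter was not tested. In the UWOPS05_217_3-CBS432 hybrid 126 (31.3%) were called, 85 with the UWOPS05_217_3 allele higher and 41 with it lower, where 24.8% of all NFRs were called (15.1% higher and 9.69% lower). In the DBVPG1373-CBS432 hybrid 170 (42.3%) were called, 108 with the DBVPG1373 allele higher and 62 with it lower, where 29.8% of all NFRs were called (17.5% higher and 12.3% lower). DESeq2 called 105 and 151 wide NFRs, and 17.9% and 26.5% of all NFRs. Every call had the same direction in both libraries of its hybrid. The split of directions depends on how alleles are scaled. With 1 library size for both alleles, 67.5% and 63.5% of the calls were higher in the S. cerevisiae allele. Over all NFRs these shares were 60.85% and 58.77%. With a TMM factor per allele 75 were higher and 51 lower in the first hybrid (59.5% higher, against 51.67% over all NFRs). In the second hybrid 86 were higher and 79 lower (52.1% higher, against 49.11% over all NFRs). The median log2 ratio of wide NFRs was 0.10 and 0.17 with 1 library size, where that of all NFRs was 0.09 in both hybrids. With TMM the median of wide NFRs was 0.01 and 0.07, where that of all NFRs was 0.

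The share called moved with the number of counts, which is larger at a longer region. At mean counts of 200 to 400 per allele, 12 of 54 wide NFRs (22.2%) and 121 of 474 medium NFRs (25.5%) were called in the UWOPS05_217_3-CBS432 hybrid, and 13 of 33 wide (39.4%) and 96 of 405 medium NFRs (23.7%) in the DBVPG1373-CBS432 hybrid. At 400 to 800 counts the shares were 27.5% of wide and 35.0% of medium NFRs in the first hybrid and 30.1% of wide and 37.7% of medium NFRs in the second. At 800 to 1600 counts, 39 of 113 wide NFRs (34.5%) and 27 of 65 medium NFRs (41.5%) were called in the first hybrid, and 73 of 156 wide (46.8%) and 65 of 138 medium NFRs (47.1%) in the second. Above 1600 counts they were 51.1% of 47 wide and 50% of 8 medium NFRs in the first hybrid and 57.3% of 75 wide and 50% of 22 medium NFRs in the second. At like counts, neither class had the higher share throughout. Over all counts, the median absolute log2 ratio was smaller at wide NFRs, at 0.43 and 0.48 in the hybrids, against 0.51 and 0.54 for all NFRs. These medians were not matched for counts, which are fewer at narrower NFRs.

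The calls at wide NFRs recurred between the hybrids, which were measured in separate libraries. Of the 402, 102 (25.4%) were called in both, all 102 in the same direction, 70 with the S. cerevisiae allele higher and 32 with it lower. These were 81.0% of the calls in the UWOPS05_217_3-CBS432 hybrid and 60.0% of those in the DBVPG1373-CBS432 hybrid, where over all NFRs the shares were 67.0% and 55.6%, with 575 of 580 shared calls in the same direction. A further 24 were called only in the first hybrid and 68 only in the second, and 208 in neither. Of all 3498 NFRs, 866 were called in the first hybrid and 1043 in the second, with 580 (16.6%) called in both. The log2 allele ratios of the hybrids correlated with r = 0.848 across the 402 wide NFRs and 0.669 across all NFRs, as a description over NFRs that differ in depth. A direct test of the difference between the hybrids' allele ratios called 0 wide NFRs by edgeR and 0 by DESeq2 (37 at an unadjusted p under 0.05, smallest adjusted p = 0.247), where edgeR called 0.429% and DESeq2 0.6% of all NFRs and 8.06% had an unadjusted p under 0.05.

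**Figure D3:**
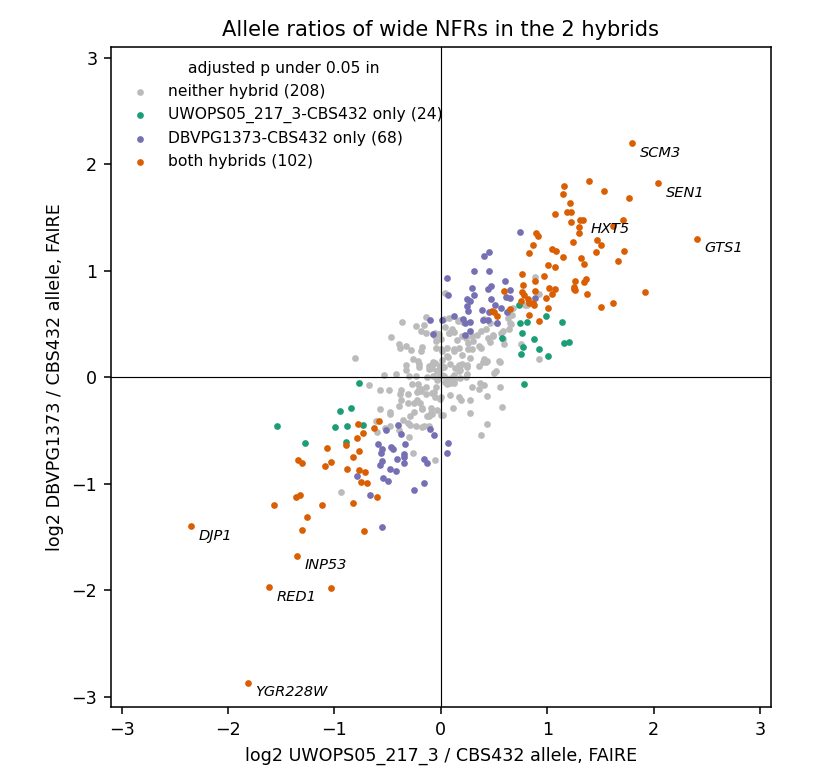
Log2 ratio of the S. cerevisiae over the CBS432 allele at the 402 wide NFRs, in the UWOPS05_217_3-CBS432 hybrid (x axis) and the DBVPG1373-CBS432 hybrid (y axis). Colors give the hybrids in which the NFR was called: the 102 called in both lie at the upper right (70) and lower left (32), and none has opposite signs in the hybrids.

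The NFRs with the largest ratios are grouped here by what their genes do. Among genes of RNA and chromosome biology, SEN1 encodes a helicase that terminates transcription of noncoding RNAs. Its 550 bp NFR (YLR430W, XII:992846-993396) had 826 and 923 CPM in UWOPS05_217_3 and 808 and 568 CPM in DBVPG1373, against 197 and 185 CPM in CBS432 at the UWOPS05_217_3 sites. In the hybrids it had 464 and 402 CPM for the UWOPS05_217_3 allele against 81.9 and 134 CPM for the CBS432 allele, and 342 and 368 CPM for the DBVPG1373 allele against 86.0 and 116 CPM for the CBS432 allele. The S. cerevisiae values did not overlap those of CBS432 in any comparison, with log2 ratios of 2.22 ± 0.31 (SE, adjusted p = 4.55e-05) in the haploids and 2.04 ± 0.26 (adjusted p = 2.00e-12) and 1.82 ± 0.20 (adjusted p = 0.000213) in the hybrids. SCM3 encodes the chaperone that places the centromeric histone Cse4. Its 470 bp NFR (IV:212037-212507) had 845 and 489 CPM in UWOPS05_217_3 and 786 and 794 CPM in DBVPG1373, against 219 and 115 CPM in CBS432, and the hybrid ratios were 1.80 ± 0.27 and 2.20 ± 0.23. NUP60, a nucleoporin gene, was also higher in both hybrids, at 629.5 and 725 CPM for the UWOPS05_217_3 allele against 205 and 208 CPM for the CBS432 allele, and 424 and 530.2 CPM for the DBVPG1373 allele against 160.3 and 179.9 CPM for the CBS432 allele.

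RED1, whose product builds the axes of meiotic chromosomes, showed the opposite direction. Its 753 bp NFR (XII:669579-670332) reached 761 bp upstream, past the 677 bp to the opposite-strand neighbour TMA7, so it spanned both promoters. It had 618 and 612 CPM in UWOPS05_217_3 and 489 and 413 CPM in DBVPG1373, against 1740 and 1531 CPM in CBS432. The alleles had 309 and 293 CPM (UWOPS05_217_3) against 857 and 989 CPM (CBS432) in the first hybrid and 263 and 267 CPM (DBVPG1373) against 1078 and 1003 CPM (CBS432) in the second. Every S. cerevisiae value was below every CBS432 value, with log2 ratios of -1.61 ± 0.20 (adjusted p = 7.76e-13) and -1.97 ± 0.13 (adjusted p = 1.26e-05) in the hybrids.

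Among genes of protein synthesis and turnover, the NFR of SUI2, which encodes the alpha subunit of translation initiation factor eIF2, was higher in S. cerevisiae, with log2 ratios of 1.88 and 2.04 in the haploids and 1.61 and 1.43 in the hybrids. APC9, a subunit of the anaphase-promoting complex, was higher in the haploids (1.75 in UWOPS05_217_3 and 1.96 in DBVPG1373) and in both hybrids (1.16 and 1.80). PRE2, which encodes the chymotrypsin-like subunit of the proteasome, was lower in UWOPS05_217_3 than in CBS432 (-1.64 ± 0.42, adjusted p = 0.00824) and lower in both hybrids (-1.30 and -1.44), whereas PRE1, another proteasome gene, was higher in UWOPS05_217_3 (1.22) and in both hybrids (0.91 and 1.33), although the first hybrid's ratio missed the threshold without the library block (0.88, edgeR adjusted p = 0.0736). In DBVPG1373 against CBS432 neither passed the test, with log2 ratios of -1.35 for PRE2 (adjusted p = 0.152) and 0.94 for PRE1 (adjusted p = 0.0925). The PRE2 NFR reached 636 bp upstream, past the 600 bp to RPL11A on the opposite strand, so it also spanned that promoter. YML6, a mitochondrial ribosomal protein gene with a 614 bp NFR, was lower in UWOPS05_217_3 (-1.83) and in both hybrids (-1.12 and -1.20). Its NFR reached 500 of the 523 bp to RPS17A, a neighbour on the opposite strand. Of these haploid calls, PRE2 and YML6 missed the threshold without the second CBS432 library (-1.29 and -1.42) or the first UWOPS05_217_3 library (-1.35 and -1.48), and APC9 in DBVPG1373 without the first CBS432 library (1.71).

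Genes of membrane traffic and mitochondria had ratios in both directions. INP53, which encodes a synaptojanin-like lipid phosphatase, had 229 and 178 CPM in DBVPG1373 and 277 and 313 CPM in UWOPS05_217_3, against 849.7 and 1101 CPM in CBS432, and hybrid ratios of -1.35 and -1.67. BET5, a subunit of the TRAPP vesicle tethering complexes, was higher in both hybrids (1.53 and 1.75), as was VAC7, a regulator of vacuolar phosphatidylinositol 3,5-bisphosphate (1.92 and 0.80). TDA3, whose product acts in the recycling of endosomal cargo, was also higher in both (1.77 and 1.69). GTS1, a gene linked to metabolic oscillation and stress tolerance, had the largest ratio of any called wide NFR in the UWOPS05_217_3-CBS432 hybrid, with 252 and 332 CPM for the UWOPS05_217_3 allele against 72.5 and 40.1 CPM for the CBS432 allele (2.41 ± 0.30, adjusted p = 1.44e-12). In the DBVPG1373-CBS432 hybrid its ratio was 1.30. The GTS1 NFR reached 633 bp upstream, past the 620 bp to MND1 on the opposite strand. For ATP18, a subunit of ATP synthase, the ratios were 1.39 and 1.84 (adjusted p = 1.02e-06 and 0.000566), and for COX13, a subunit of cytochrome c oxidase, -1.03 and -1.98 (adjusted p = 0.00335 and 0.000223).

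DJP1, which encodes a J-protein of peroxisomal protein import, had the lowest called ratio between UWOPS05_217_3 and CBS432, in the haploids and in their hybrid. Its 358 bp NFR (IX:362910-363268) had 47.7 and 46.0 CPM in UWOPS05_217_3 against 239 and 194 CPM in CBS432, and 27.9 and 9.39 CPM for the UWOPS05_217_3 allele against 87.6 and 83.8 CPM for the CBS432 allele (-2.35 ± 0.47, adjusted p = 1.37e-05). In DBVPG1373 it had 93.9 and 76.9 CPM, between the values of the other strains, and missed the threshold against CBS432 (adjusted p = 0.0524). YGR228W is a reading frame that overlaps SMI1 and is not in the R64 gene table. Its NFR had the lowest ratio in the DBVPG1373-CBS432 hybrid, with 15.0 and 21.1 CPM for the DBVPG1373 allele against 144 and 119 CPM for the CBS432 allele (-2.87 ± 0.33, adjusted p = 0.000257). TLD1 had an NFR that reached 371 bp upstream, past YDR274C on the opposite strand at 291 bp. It had 191 and 244 CPM in UWOPS05_217_3 against 929 and 938 CPM in CBS432 (-2.07 ± 0.32, adjusted p = 0.000152). In the hybrids its ratio was -0.72 (adjusted p = 0.0199, and 0.0608 with DESeq2 or 0.0859 by edgeR without the library block) and -1.44 (adjusted p = 0.000377).

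**Figure D4:**
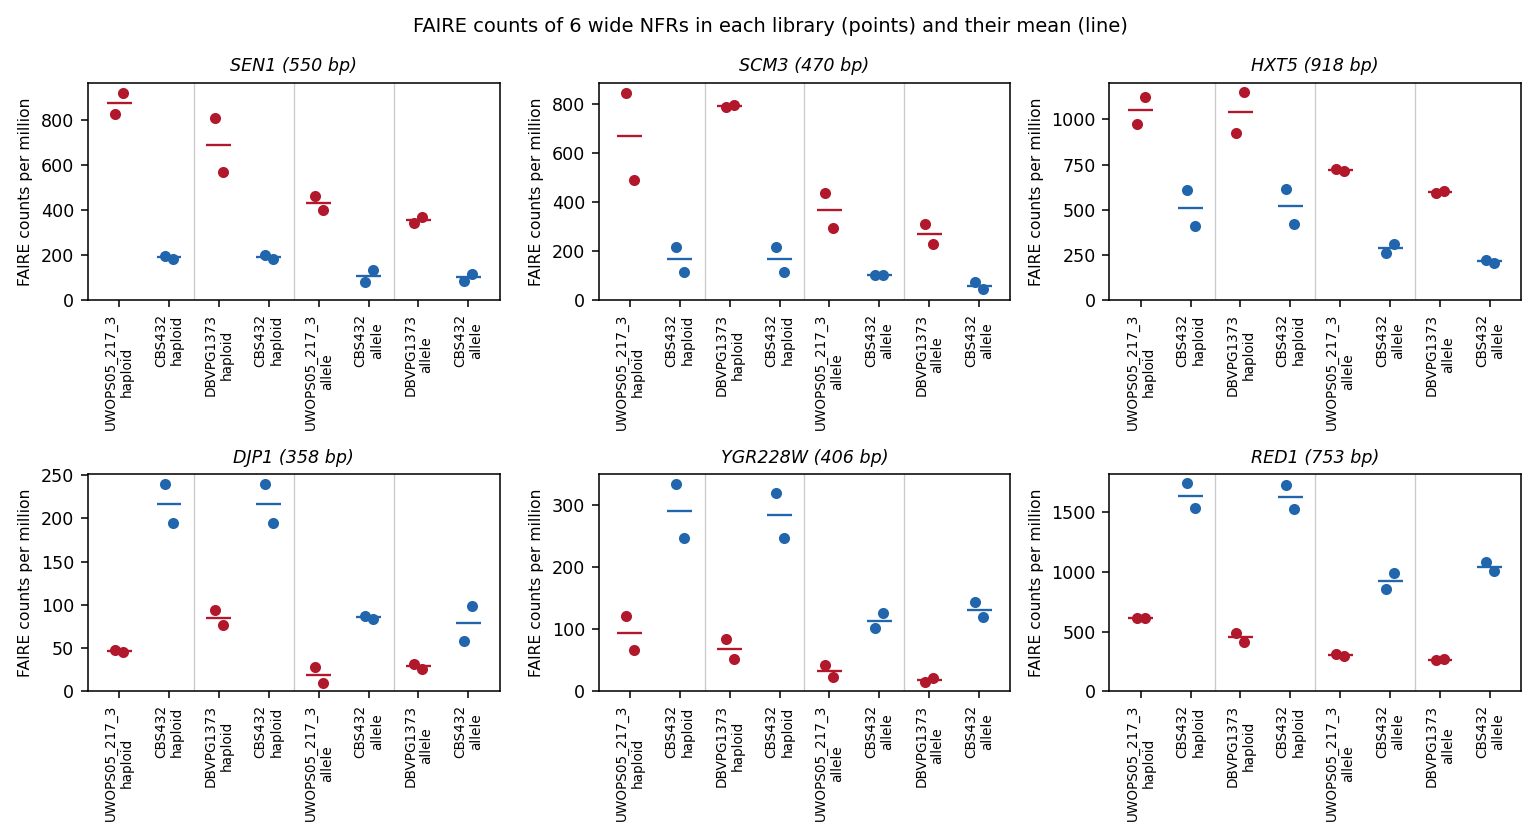
FAIRE level in CPM (y axis) of 6 wide NFRs in each library, with the S. cerevisiae strain or allele (red) left of CBS432 (blue) in each of 4 comparisons. Points are the 2 replicate libraries and lines their mean: at SEN1, SCM3 and HXT5 the red points lie above the blue ones, and at DJP1, YGR228W and RED1 below them, without overlap in any comparison.

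Haploid and hybrid ratios were then set against each other, again from separate libraries. Of the 77 wide NFRs called between UWOPS05_217_3 and CBS432, 67 (87.0%) were also called in their hybrid, all in the same direction, and these were 53.2% of the hybrid's calls, where over all NFRs the shares were 66.0% and 54.3%. Of the 25 called between DBVPG1373 and CBS432, all 25 were called in their hybrid in the same direction, which were 14.7% of the hybrid's calls, where over all NFRs the shares were 84.7% and 23.4%. A trans effect, tested as the parental ratio minus the hybrid ratio, was called at 0 wide NFRs in either cross by edgeR and by DESeq2. At an unadjusted p under 0.05 edgeR gave 13 and 12. Its smallest adjusted p was 0.532 in the UWOPS05_217_3 cross and 0.917 in the DBVPG1373 cross. The 0.532 belonged to TLD1, whose ratios differed by -1.39, so even a difference of that size went uncalled. The 0 calls therefore do not show that trans effects were absent. The study itself, with another model and threshold, reported trans effects at many NFRs. Over all NFRs edgeR called 0.0572% (0% higher) in the first cross and 0% in the second, DESeq2 called 0.0858% in each, and 4.26% and 4.57% had an unadjusted p under 0.05. In the UWOPS05_217_3 cross, PDR15 and SPO24 were called when the first UWOPS05_217_3 or the first CBS432 library was left out, ECM2 when either second library was, and GTS1 without the first hybrid library. The median difference between the parental and hybrid log2 ratios was -0.09 and -0.11 for wide NFRs, against -0.10 and -0.16 for all NFRs. Parents were scaled to their own totals but hybrid alleles to 1 library size, so unequal allele totals enter this difference. In the first library of each hybrid these totals were 1644236 against 1540883 and 2036883 against 1892508, with the S. cerevisiae allele first. How much the scaling contributed was not tested.

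Within the 402, the share called in cis is given by width. It was 30.1% in the UWOPS05_217_3-CBS432 hybrid and 41.0% in the DBVPG1373-CBS432 hybrid for the 156 NFRs of 350 to under 400 bp, 32.3% and 39.4% for the 155 of 400 to under 500 bp, and 31.9% and 49.5% for the 91 of 500 bp or more. The 25 NFRs that were mostly coding sequence of genes with RNA counts had 20% and 36% called. The 100 without any such sequence had 31% and 45% called. Of the 27 next to a tRNA gene, 40.7% and 48.1% were called. These are counts within small groups and were not tested against each other.

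Among the listed genes with wide NFRs, ribosomal protein genes differed between alleles in both directions. Of the 10, RPS13 was higher in both hybrids (1.47 and 1.29) and RPL5 was lower in both (-0.89 and -0.86). RPL22A and RPP1B were higher (1.14 and 0.54) and RPL33A lower (-0.45) in the DBVPG1373-CBS432 hybrid, and the other 5 were called in neither. In glycolysis, CDC19, which encodes pyruvate kinase, had higher S. cerevisiae alleles in both hybrids (0.52 and 0.58), the first of which missed the threshold with DESeq2 (0.52) or TMM factors (0.43). FBA1, which encodes aldolase, passed the test in the UWOPS05_217_3-CBS432 hybrid (0.75) and had a log2 ratio of 0.22 in the other (adjusted p = 0.238), and PFK2, a phosphofructokinase subunit, passed it in neither. Of the 4 chaperone genes, HSP10, the mitochondrial co-chaperonin, was higher in both hybrids (1.08 and 1.19) and SSE1, a nucleotide exchange factor of Hsp70, in the first (1.16). Of the 3 cyclin genes, CLB1 was lower in both hybrids (-0.77 and -0.69), and CLB2 and CLN2 were called in neither. Of the 8 transcription factor genes, CAT8, an activator of gluconeogenic genes, was called in the first hybrid (0.92), and CUP9, a repressor of peptide import, and ROX1, the repressor of hypoxic genes, in the second (0.51 and 0.55). MRPS9, a mitochondrial ribosomal protein gene, was higher in both hybrids (1.04 and 1.21), and FKS1, which encodes a glucan synthase subunit of the cell wall and has a 1018 bp NFR, was lower in the second (-0.53). Without the library block FBA1 (0.75) and CLB1 (-0.77) missed the threshold in the first hybrid and CUP9 (0.50) and ROX1 (0.53) in the second.

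RNA was measured in the same strains, and its counts in the UWOPS05_217_3 cross were used. Genes with a wide NFR had a median RNA level of 99.8 to 109.9 CPM per kb of gene in the 8 RNA tables, each scaled to its own total, against 85.2 to 94.7 for medium, 73.4 to 82.5 for narrow and 83.3 to 92.6 CPM per kb for all genes. Between alleles of the UWOPS05_217_3-CBS432 hybrid the RNA of 290 of the 402 genes (72.1%) was called, 134 with the UWOPS05_217_3 allele higher and 156 with it lower, where 68.6% of all 4995 genes were called (31.8% higher and 36.7% lower). Between the haploids it was 214 (53.2%), 100 higher and 114 lower, where 54.6% of all genes were called (28.2% higher and 26.4% lower). The sources used here do not say that counting used strand, so reads of the 35 genes that overlap another gene cannot be told apart from those of their partner. Counts of the highly expressed FBA1 lay between 153148 and 160599 in all 8 RNA tables, although table totals ran between 36188856 and 106845771. Whether counts of the most expressed genes were limited was not tested, so RNA levels and ratios of such genes are uncertain.

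Allele differences in accessibility were then set beside those in RNA of the same genes. RNA was called for 86 of the 126 genes whose wide NFR was called in the UWOPS05_217_3-CBS432 hybrid (68.3%) and for 204 of the other 276 (73.9%). Over all NFRs paired with a gene, the same shares were 66.2% and 70.2%. Of the 86 called in both, 47 (54.7%) had the same direction, 27 higher and 20 lower, against 41.6% for medium NFRs, 50% for narrow NFRs and 47.5% over all NFRs paired with a gene. In the haploids 40 were called in both, 22 of them in the same direction (55.0%), against 51.9% for medium, 60% for narrow and 56.3% over all NFRs paired with a gene. The log2 ratios of FAIRE and RNA correlated with r = 0.0509 in the hybrid and 0.00279 in the haploids across the 402 pairs, against 0.0116 and 0.0758 across all pairs.

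**Figure D5:**
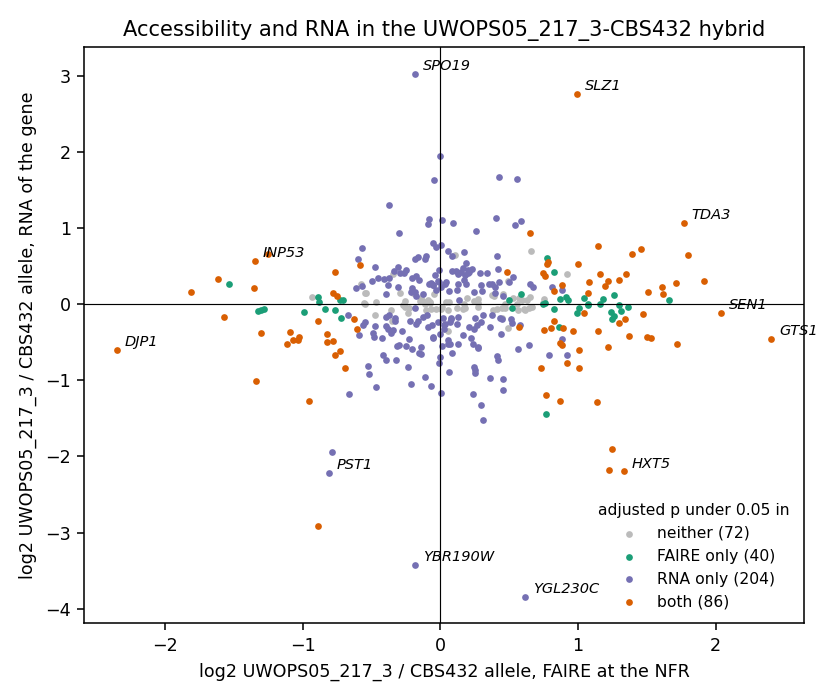
Log2 ratio of the UWOPS05_217_3 over the CBS432 allele in the UWOPS05_217_3-CBS432 hybrid, for FAIRE at each of the 402 wide NFRs (x axis) and for RNA of its gene (y axis). Of the 86 pairs called in both, 47 have like signs and 39 opposite signs, and the 204 called in RNA only cover the full range of RNA ratios.

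HXT5, which encodes a hexose transporter induced at low glucose and slow growth, was 1 of 39 genes called in opposite directions in FAIRE and RNA. Its 918 bp NFR (VIII:296464-297382) had 972 and 1126 CPM in UWOPS05_217_3 and 924 and 1153 CPM in DBVPG1373, against 607 and 412 CPM in CBS432, and the alleles had 726 and 714 CPM (UWOPS05_217_3) against 262 and 310.3 CPM (CBS432) and 592 and 602 CPM (DBVPG1373) against 224 and 204 CPM (CBS432). Its RNA was 15.1 and 12.9 CPM in UWOPS05_217_3 against 43.6 and 45.5 CPM in CBS432, and 5.29 and 6.15 CPM for the UWOPS05_217_3 allele against 26.3 and 25.8 CPM for the CBS432 allele. Thus the more accessible allele had less RNA, with a FAIRE log2 ratio of 1.34 ± 0.21 (adjusted p = 1.83e-08) and an RNA log2 ratio of -2.20 ± 0.14 (adjusted p = 2.53e-33) in the hybrid. The RNA of the other 2 transporter genes was also lower from the UWOPS05_217_3 allele, at -1.005 for PUT4, a proline permease, whose NFR was lower too (-1.34), and at -0.52 for TAT1, an amino acid permease whose NFR was not called (0.06).

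Further pairs with large ratios in both measures were picked after their values were seen. MSH4, a meiotic crossover gene, and COX5B, the hypoxic isoform of a cytochrome c oxidase subunit, had a higher UWOPS05_217_3 allele in FAIRE (1.22 and 1.25) and a lower one in RNA (-2.18 and -1.90), as at HXT5. AAC3, an ADP/ATP carrier expressed without oxygen, had log2 ratios of -0.95 in FAIRE and -1.27 in RNA, and SLZ1, a meiotic gene of the mRNA methylation complex, 0.99 in FAIRE and 2.77 in RNA. For TDA3 both were higher, with RNA at 213 and 207 CPM for the UWOPS05_217_3 allele against 100.4 and 100 CPM for the CBS432 allele (1.07). INP53, with a less accessible UWOPS05_217_3 allele, had more RNA from it (0.57).

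Several of the largest RNA ratios stood at wide NFRs whose accessibility was not called in this hybrid. SPO19, a meiosis gene, had RNA of 25.1 and 18.0 CPM in UWOPS05_217_3 against 1.11 and 0.870 CPM in CBS432, and 6.63 and 6.60 CPM for the UWOPS05_217_3 allele against 0.630 and 1.03 CPM for the CBS432 allele (log2 3.04 ± 0.33), with a FAIRE log2 ratio of -0.19 (adjusted p = 0.620). PST1, which encodes a cell wall protein, had RNA of 87.2 and 91.8 CPM in UWOPS05_217_3 against 420.5 and 424 CPM in CBS432, and 40.5 and 36.1 CPM against 185 and 171 CPM for the same alleles, with a FAIRE log2 ratio of -0.81 (adjusted p = 0.0790). HOT13, which acts in protein import between the mitochondrial membranes, had an RNA log2 ratio of 1.95 and a FAIRE log2 ratio of -0.00192. YGL230C had the lowest RNA ratio, with 0.840 and 1.46 CPM for the UWOPS05_217_3 allele against 15.8 and 16.2 CPM for the CBS432 allele (-3.85). Its FAIRE log2 ratio was 0.62, just past the threshold (edgeR adjusted p = 0.0508). In the DBVPG1373-CBS432 hybrid its NFR was called, with the DBVPG1373 allele higher (0.76, edgeR adjusted p = 0.013). YBR190W, a reading frame not in the R64 gene table, had an RNA log2 ratio of -3.42 and a FAIRE log2 ratio of -0.18, and 311 bp of its NFR lay in the reading frame. SEN1 and SCM3, with the 2 largest FAIRE ratios between the UWOPS05_217_3 and CBS432 haploids, had RNA log2 ratios of -0.11 and 0.65 in the hybrid.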

How the data were processed

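FAIRE-Seq and RNA-Seq libraries of 3 haploid strains and 2 hybrids (2 replicates each, 20 samples) were represented by 32 deposited tables, of which 24 were used. The authors mapped haploid reads with bwa and samtools (versions not given in the sources used here) to strain assemblies and a CBS432 reference, and hybrid reads to both genomes together. They defined NFRs from FAIRE peaks upstream of start codons, merged them over samples, filtered them on alignment, simulated reads and genomic DNA, and deposited raw counts summed over each NFR or gene, leaving out indel sites. These deposited counts were whole numbers and not normalized. Reads that span more than 1 counted site may enter repeatedly, and counts rise with width and with the number of sites. The 8 RNA tables of the DBVPG1373 cross were not used, because 1890 of 5066 genes had the same value in all 8. FAIRE tables totaled 1339393 to 4198250 counts. RNA tables totaled between 36188856 and 106845771.

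Groups followed the sample labels. All 3498 NFRs, or all 4995 genes, were fitted without a filter in R 4.3.3 with edgeR 4.0.16 (quasi-likelihood F-test): haploids with TMM normalization in the 4 libraries of a comparison, alleles with 1 library size for both and the library as a block, and trans effects as an interaction with parents scaled by totals, where blocks paired the parental libraries by replicate number. The haploid comparisons had no such block. P-values were adjusted over all NFRs or genes (Benjamini-Hochberg, threshold 0.05). DESeq2 1.42.0, another scaling, a mean count of at least 100, replicate blocks and leaving out libraries were alternatives. The tests were tried on simulated data. Tables and plots used Python 3.11.15 with numpy 2.4.6, pandas 2.3.3 and matplotlib 3.10.9.

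Named NFRs were the 3 widest, the 3 with most counts per length, listed genes and those next to the width limit. Also named were those with the largest called ratios per comparison and direction (mean count at least 100, same direction in every pairing). Others had the largest ratios among calls shared by both hybrids, or the largest called RNA allele ratios. The rest are marked as picked later or are named with the count they belong to. Gene names came from the tables and, for 4597 of 4995 genes, from the R64 gene table, which also gave neighbours; no sequence was used here. The width rule, members and gene lists were chosen with earlier results of these data known.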

Additional observations from a re-analysis of the deposited data

How the results depend on the processing

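Among the named NFRs and genes, 144 called values were recomputed under the alternatives, giving 934 values. Of these, 67 lost the call, 0 reversed and 867 were counted as unchanged. Unchanged values were still called in the same direction, except for allele ratios with a hybrid library left out. Those were not tested and only kept their sign. Of the 67, 38 arose with a library left out, 19 without the library block, 7 with DESeq2 and 3 with TMM factors per allele. With a replicate block by number, 129 wide NFRs were called for UWOPS05_217_3 over CBS432 and 80 for DBVPG1373 over CBS432. The count for UWOPS05_217_3 over DBVPG1373 was 12. Over all 3498 NFRs the counts were 1010, 736 and 112, in the same order. The labels do not say that the replicate numbers mark shared batches. With 2 pairs a group, the correlations of same-numbered FAIRE deviations (0.167, 0.268 and 0.487) do not settle the pairing. Without the library block the hybrid counts were 81 in the UWOPS05_217_3-CBS432 hybrid and 119 in the DBVPG1373-CBS432 hybrid. Over all 3498 NFRs they were 456 and 816. In both hybrids 66 wide NFRs were then called. DESeq2 called 50 for DBVPG1373 over CBS432. With a library left out, the counts ranged between 36 and 60 for UWOPS05_217_3 over CBS432, 4 and 72 for DBVPG1373 over CBS432, 0 and 6 for UWOPS05_217_3 over DBVPG1373, and 0 and 2 for trans effects in the UWOPS05_217_3 cross, where leaving out a parental library also removes its same-numbered partner. With TMM the median cis log2 ratio of wide NFRs was 0.0111 in the first hybrid and 0.0743 in the second, and with a hybrid library left out it ranged between 0.1038 and 0.1387 in the first hybrid and 0.1873 and 0.1922 in the second. The median FAIRE level, 1048 CPM per kb over the haploid tables, was 1084 in the first UWOPS05_217_3 library taken alone, 1089 in the first DBVPG1373 library and 999.6 in the second CBS432 library. The causes of these shifts were not tested. The allele test without 1 hybrid library was not run, because 1 library leaves no residual degrees of freedom, and the planned motif search was not run without a genome sequence. With 2 replicates per group, small ratios at low counts could not be resolved. Some larger ratios at high counts also missed the threshold. LOC1 in the haploids had 0.75 in UWOPS05_217_3 and 0.89 in DBVPG1373 over CBS432 (edgeR adjusted p = 0.294 and 0.403).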
